A study of Platycodon grandiflorus with 6 samples.

Results

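The enzymes of phenylpropanoid and lignin synthesis were followed in callus and leaves of *Platycodon grandiflorus*, a perennial medicinal herb. The units measured were unigenes, the contigs assembled from the reads, which have no place in a genome here. A unigene was a member when the SwissProt name of its best match contained the name of any of 11 enzymes of this pathway. The names were phenylalanine ammonia-lyase (PAL), trans-cinnamate 4-monooxygenase (C4H), 4-coumarate--CoA ligase (4CL), hydroxycinnamoyltransferase (HCT), cytochrome P450 98A (C3'H), caffeoylshikimate esterase (CSE), caffeoyl-CoA (CCoAOMT), cytochrome P450 84A (F5H), cinnamoyl-CoA reductase (CCR), cinnamyl alcohol dehydrogenase (CAD) and laccase. Of 152777 unigenes, 303 had such a name, and 25 of them were left out because their best match among known proteins was in peanut (Arachis). The remaining 278 members were 65 laccases, 59 4CL, 51 CCR, 28 CAD, 19 CSE, 17 PAL, 13 HCT, 13 CCoAOMT, 9 C3'H and 3 C4H unigenes and a single F5H unigene.

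The study compared callus and leaves in its search for a β-glucosidase that acts on the saponin platycoside E, and the lignin pathway was not its subject. Callus (replicates 4, 5 and 6) was grown from stem explants with nodes on MS medium with 1.0 mg/L of the auxin NAA and 0.5 mg/L of the cytokinin 6-BA for 50 days under 12 h of light a day. Leaves (replicates 1, 2 and 3) were taken from the original plant, and the methods state that explants and leaves came from the same plantlets, with 3 independent biological samples of each tissue. Medium, hormones, culture and organ of origin therefore differ together between the tissues and cannot be told apart, and the explants of the callus were stems while the plant tissue sequenced was leaf.

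Phenylpropanoid synthesis starts when PAL removes ammonia from phenylalanine to give cinnamic acid, which C4H hydroxylates and 4CL joins to coenzyme A. HCT, C3'H and CSE then build the caffeoyl unit, CCoAOMT and F5H modify its ring, and CCR and CAD reduce it to the lignin monomers, which laccases and peroxidases oxidise in the cell wall. Lignin stiffens the secondary walls of xylem and fibres, and the same early steps also feed flavonoids and lignans.

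The 6 libraries were even in depth, with 17963458 to 19444638 expected counts (estimated read pairs per unigene) each. Peanut-matching unigenes held 1.17% of the counts of leaf replicate 1 and between 0.178% and 0.347% of those of the other libraries. The 25 members left out for such a match had 553.6 counts in leaf replicate 1, 21.0 in leaf replicate 2, 1.0 in callus replicate 4 and 0.0 in the other libraries. The labels of the tissues were compared with markers of leaf cells, the chlorophyll a-b binding proteins and the small subunit of Rubisco. Their summed level was 8961.8 to 9515.2 FPKM (read pairs scaled to unigene length and library size) in callus and 24216.3 to 30105.6 FPKM in leaves, so callus held these transcripts at a lower level but did not lack them, and 4 of 89 such unigenes were at 0 in callus.

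The names used for the members are those of their nearest SwissProt match, and they are not equally specific. The KEGG orthology of the best match named the same enzyme for 239 of 278 members. All of the PAL, C4H, C3'H, F5H, CAD and laccase unigenes had the KEGG number of their enzyme. In contrast, 18 of 19 CSE unigenes carried the number of an acylglycerol lipase, and 16 of the 4CL unigenes, matched to 4CL-like proteins, carried that of OPC-8:0 CoA ligase, an enzyme of jasmonate synthesis. A single member of the CCoAOMT set, CL350.Contig14_All, matched a fatty alcohol:caffeoyl-CoA acyltransferase, which is no methyltransferase, and a member of the HCT set matched a putrescine hydroxycinnamoyltransferase. Names without "-like" or "probable" were carried by 173 members, and 17 members had their best match in *P. grandiflorus* itself. No sequences of the unigenes were used here.

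Of the 44 members higher in callus than in leaves, laccase held 14 (of 35 tested), CCR 8 (of 38), CAD 7 (of 19), CSE 5 (of 18), CCoAOMT 4 (of 12), 4CL 4 (of 29), HCT 1 (of 10) and C3'H 1 (of 8). No unigene of PAL (11 tested), C4H (3 tested) or F5H (1 tested) was called higher. Whether these shares differ between the enzymes was not tested. Counts were tested by the quasi-likelihood method of edgeR, with p-values adjusted by Benjamini and Hochberg over all 66307 unigenes with enough counts, and 0.05 was the largest adjusted p that counted as a call. Of 278 members, 184 could be tested, 44 of them (23.9%) were higher in callus and 11 (5.98%) were lower. Over all unigenes tested, the shares were 14.2% higher and 12.3% lower, 26.5% in either direction. The median log2 fold change, callus over leaf, was 0.75 for the members and -0.10 for all unigenes tested. Without callus replicate 6 the counts were 6 higher and 1 lower, and without callus replicate 5 they were 18 higher and 1 lower. Shares over all unigenes in those fits are not given here, so these falls cannot be read as particular to the members. In libraries made from whole tissue, fewer cells of a type and less RNA per cell cannot be told apart. A member at 0 in a tissue has a fitted fold change that depends on the method, and 15 of the 184 tested were such members. Setting them at the lower bound that 3 counts in that tissue allow left the medians unchanged. It could not do otherwise, since the bounds stayed on the same side of the medians.

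All 44 members called higher had every callus library above every leaf library in FPKM, and all 11 called lower had every callus library below. Over all unigenes tested, 28.4% had every callus library above and 25.5% every callus library below the leaf libraries. Of all 184 members tested, 82 were separated upward and 32 downward. The 44 higher members came from 32 assembly clusters or single unigenes and the 11 lower members from 8. At 0 in every leaf library were 11 of the 44, and at 0 in every callus library were 4 of the 11. The test had counts enough for 184 of 278 members, and of the other 94, 8 had no counts in any library and none exceeded a mean of 1.21 FPKM.

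**Figure D1:**
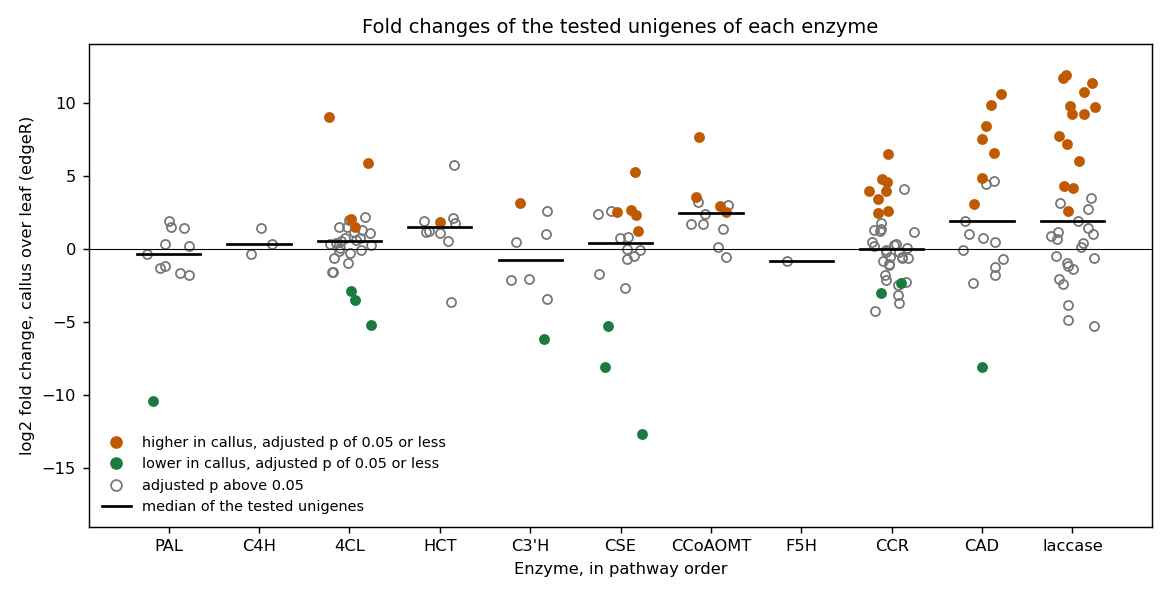
Log2 fold changes, callus over leaf, by edgeR for the 184 tested unigenes, by enzyme in pathway order. Each point is a unigene, filled where its adjusted p was at most 0.05, and the black lines are medians, which lay at 2.48 for CCoAOMT, 1.92 for laccase, 1.88 for CAD and -0.33 for PAL.

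Summed over the unigenes of each enzyme, the mean level was higher in callus for all enzymes but F5H, with the libraries of the tissues separated for 6 of them. The FPKM of all 278 members summed to 2663.1, 1867.4 and 1978.3 in callus replicates 4, 5 and 6, against 842.5, 774.5 and 885.6 in leaf replicates 1, 2 and 3, a ratio of the means of 2.60. CCR alone made up more than any other enzyme in both tissues, with 1076.1, 751.6 and 837.8 FPKM in callus against 293.4, 261.4 and 299.8 FPKM in leaves. The callus libraries lay above all leaf libraries for HCT, CSE, CCoAOMT, CCR, CAD and laccase, and the tissues overlapped for PAL, C4H, 4CL, C3'H and F5H. The ratio of the mean sums was 5.83 for CAD, 5.27 for CCoAOMT, 3.14 for laccase, 3.12 for CCR, 2.45 for HCT and 1.56 for CSE. It was 2.44 for C4H, 1.35 for C3'H, 1.28 for PAL, 1.18 for 4CL and 0.562 for F5H. Sums were not tested, and some rest on few unigenes: without its most abundant unigene the ratio was 1.04 for C4H, 0.610 for C3'H and 0.819 for PAL, but 5.31 for CCoAOMT, 4.14 for CAD and 2.24 for CCR.

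**Figure D2:**
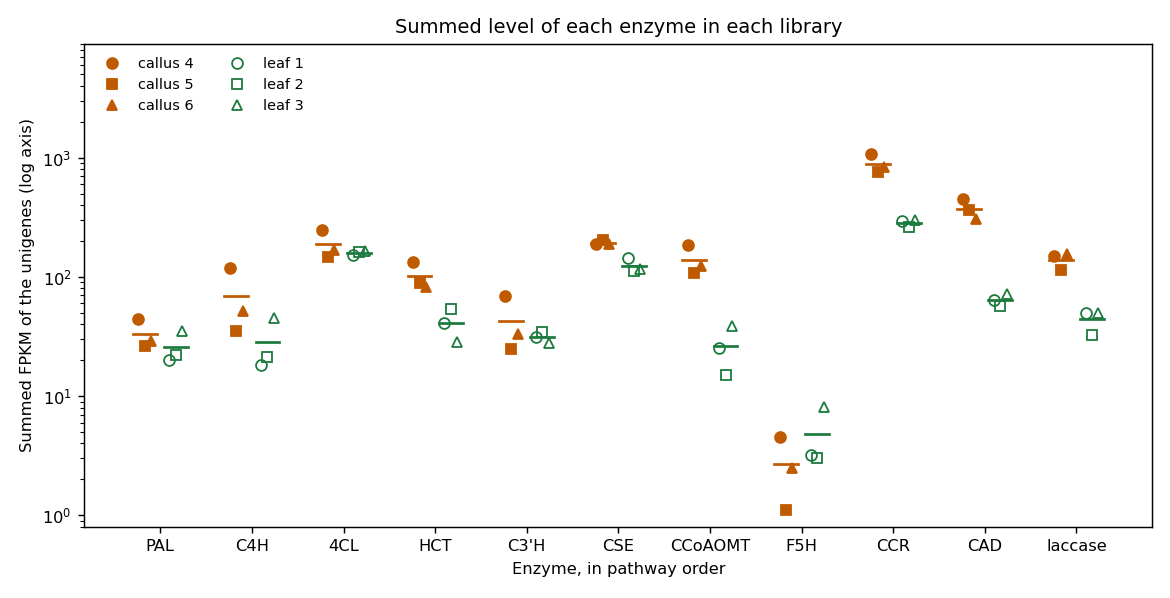
Summed FPKM (log axis) of the unigenes of each enzyme in each library, callus (filled) left of leaves (open), with a line at the mean of 3 libraries. The callus points lie clear of the leaf points for CCoAOMT, CCR, CAD and laccase, while for PAL, C4H, 4CL, C3'H and F5H they overlap.

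Callus replicate 4 held the highest level of the callus libraries for many members. Of the tested members with reads in callus, 107 of 180 (59.4%) were highest in callus replicate 4, against 39.2% of all unigenes tested. That library was the highest for 9 of 10 PAL, 3 of 3 C4H and 8 of 8 C3'H unigenes, and for 9 of 12 CCoAOMT, 7 of 10 HCT, 25 of 38 CCR, 11 of 18 CAD, 14 of 29 4CL, 14 of 35 laccase and 6 of 16 CSE unigenes. Without callus replicate 4, the ratio of the mean sums was 1.07 for PAL, 1.55 for C4H, 0.989 for 4CL and 0.926 for C3'H, while it was 5.26 for CAD, 4.40 for CCoAOMT and 3.03 for laccase. The part of this library in each result below was not tested beyond the values given.

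At the entry of the pathway, no PAL or C4H unigene was called higher by edgeR, although a PAL unigene lay close to the threshold. The PAL unigene with the highest mean, CL2566.Contig2_All, had 17.44, 13.43 and 15.05 FPKM in callus replicates 4, 5 and 6 and 2.89, 1.78 and 7.53 FPKM in leaf replicates 1, 2 and 3. The tissues did not overlap, and the log2 fold change of 1.92 (SE 0.55) had an edgeR adjusted p of 0.0501, just above the threshold of 0.05, and 0.0135 without leaf replicate 3. Summed with the other contig of its cluster, matched to Protein PHOX4 and no PAL, it was called higher (log2 fold change 1.2, SE 0.25, edgeR adjusted p = 0.0116). The next PAL unigene of another cluster, Unigene60966_All, had 4.75, 1.49 and 0.64 FPKM in callus against 0.00, 6.86 and 15.32 FPKM in leaves, with the tissues overlapping and an edgeR adjusted p of 0.525. Of 11 PAL unigenes tested, 1 was lower in callus, CL2692.Contig6_All, which was at 0 in all callus libraries and had 2.87, 0.83 and 0.88 FPKM in leaves, at least 171-fold higher in leaves. The 5 PAL contigs of its cluster summed to 1.5, 0.2 and 0.8 FPKM in callus and 5.3, 2.4 and 1.0 FPKM in leaves. All 11 contigs, the others matched to a zinc metalloprotease, summed to 15.5, 14.4 and 15.8 FPKM in callus and 20.0, 19.6 and 24.8 FPKM in leaves (log2 fold change -0.64, SE 0.15, edgeR adjusted p = 0.0159). By name, the 12 unigenes matched to PAL 1 summed to 20.67, 9.71 and 10.78 FPKM in callus and 16.47, 19.05 and 25.01 FPKM in leaves. The set had 0 higher unigenes by edgeR, 1 at an unadjusted p under 0.05 and 1 at an adjusted p of 0.05 by DESeq2, by either limma fit, by edgeR with the size factors of DESeq2 and by edgeR with its legacy setting off. Lower PAL unigenes numbered 1 by edgeR, 2 at an unadjusted p under 0.05 and 2 by DESeq2.

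C4H, the hydroxylase that follows PAL, was carried almost wholly by a single unigene. CL7272.Contig1_All had 115.71, 33.42 and 49.59 FPKM in callus and 15.99, 19.33 and 41.69 FPKM in leaves. Callus replicate 5 lay below leaf replicate 3, and the log2 fold change of 1.39 (SE 0.62) did not pass (edgeR adjusted p = 0.146). Unigene23107_All was low in all libraries, at 2.34, 1.49 and 1.72 FPKM in callus and 1.83, 0.80 and 1.78 FPKM in leaves (edgeR adjusted p = 0.645). None of the 3 C4H unigenes reached an unadjusted p of 0.05 by edgeR or an adjusted p of 0.05 by DESeq2.

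The 4CL set held both directions. The most abundant, CL1838.Contig1_All, matched to 4CL-like 7, had 79.15, 36.08 and 46.18 FPKM in callus and 57.58, 50.68 and 51.80 FPKM in leaves, a log2 fold change of 0.03 (SE 0.35, edgeR adjusted p = 0.961). Its leaf values fell within the range of the callus values. CL11333.Contig1_All, matched to 4CL 2, the name of enzymes that act on coumarate in other plants, had 49.11, 16.45 and 19.46 FPKM in callus and 5.48, 8.60 and 16.59 FPKM in leaves (log2 fold change 1.49, edgeR adjusted p = 0.128). Callus replicate 5 was just below leaf replicate 3 here. The second unigene named 4CL 2, Unigene30134_All, was higher in callus, with 36.29, 20.31 and 23.88 FPKM against 10.60, 5.19 and 13.13 FPKM in leaves (log2 fold change 1.50, edgeR adjusted p = 0.0499), and it passed in none of the fits that left out a library.

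The 4CL-like unigenes called lower in callus carried the KEGG number of OPC-8:0 CoA ligase or, for CL1838.Contig3_All, lay in the cluster of the most abundant unigene. CL4655.Contig2_All, matched to 4CL-like 9, had 3.38, 2.05 and 0.62 FPKM in callus and 13.96, 15.89 and 15.90 FPKM in leaves (log2 fold change -2.90, SE 0.65, edgeR adjusted p = 0.0244). The other contig of its cluster, CL4655.Contig1_All, had 17.98, 14.10 and 14.67 FPKM in callus and 8.98, 13.45 and 5.41 FPKM in leaves, and the sum of the cluster had a log2 fold change of -0.43 (edgeR adjusted p = 0.184). Unigene37102_All, matched to 4CL-like 5, had 2.10, 0.54 and 0.31 FPKM in callus and 12.24, 13.29 and 8.59 FPKM in leaves (log2 fold change -3.49, SE 0.83, edgeR adjusted p = 0.0289). Both were no longer called without leaf replicate 2, callus replicate 5 or callus replicate 6, where their edgeR adjusted p lay between 0.0559 and 0.109. A further unigene of the same name moved the other way: Unigene38667_All had 7.92, 13.50 and 10.85 FPKM in callus against 0.05, 0.00 and 0.00 FPKM in leaves, a ratio of counts of 624 with an exact 95% interval of 169 to 5060 for counting error. In all, 4 of 29 tested 4CL unigenes were higher and 3 lower, beside 14.2% higher and 12.3% lower over all unigenes tested. DESeq2, which also covered unigenes that edgeR did not test, called 5 higher and 6 lower.

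HCT, which moves the coumaroyl unit onto shikimate, was called at 1 of 10 tested unigenes, although 9 of 10 had a positive fold change. The most abundant, CL3785.Contig7_All, had 43.60, 30.06 and 26.95 FPKM in callus and 1.34, 18.44 and 6.54 FPKM in leaves. All callus libraries were above all leaf libraries, but the leaf libraries were spread widely, and the log2 fold change of 1.90 (SE 0.90) did not pass (edgeR adjusted p = 0.163). CL7371.Contig3_All had 12.46, 4.54 and 4.11 FPKM in callus and 1.32, 0.43 and 3.38 FPKM in leaves (log2 fold change 2.08, edgeR adjusted p = 0.129). The unigene that passed, CL3785.Contig4_All, had 10.79, 8.14 and 7.69 FPKM in callus against 1.59, 3.61 and 2.11 FPKM in leaves (log2 fold change 1.85, edgeR adjusted p = 0.0257). It passed in only 2 of 6 fits that left out a library, with an edgeR adjusted p of up to 0.0845. Counts summed over the contigs of that cluster gave a log2 fold change of 1.21 (edgeR adjusted p = 0.0491), and those of CL7371.Contig3_All gave 2.04 (edgeR adjusted p = 0.0271). Lower in callus were 0 HCT unigenes by edgeR at an adjusted p of 0.05, 1 at an unadjusted p and 1 by DESeq2. Higher were 2 at an unadjusted p under 0.05 and 3 by DESeq2, which also counted Unigene24558_All, not tested by edgeR.

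C3'H, the P450 that hydroxylates the coumaroyl ring, was led by Unigene26437_All in callus and by a cluster of contigs in leaves. Unigene26437_All had 42.61, 14.28 and 17.78 FPKM in callus and 1.84, 1.22 and 5.48 FPKM in leaves, and it was higher in callus (log2 fold change 3.16, SE 0.77, edgeR adjusted p = 0.0316). The call was lost in all fits without a library but that without leaf replicate 3, with an edgeR adjusted p of 0.0692 to 0.0852. The most abundant contig of cluster CL7858, CL7858.Contig5_All, had 11.35, 6.50 and 9.03 FPKM in callus and 4.93, 3.72 and 5.01 FPKM in leaves (log2 fold change 0.99, edgeR adjusted p = 0.0690). Other contigs of that cluster stood higher in leaves. CL7858.Contig1_All, matched to P450 98A3, had 0.07, 0.00 and 0.06 FPKM in callus against 9.67, 1.25 and 0.80 FPKM in leaves and was called lower (edgeR adjusted p = 0.0313), with a ratio of counts of 0.0118 and an exact 95% interval of 0.00247 to 0.0357. The 6 contigs together had 20.5, 8.1 and 12.4 FPKM in callus and 29.0, 30.8 and 21.8 FPKM in leaves, a log2 fold change of -0.93 (edgeR adjusted p = 0.102).

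CSE, an esterase that releases caffeate from caffeoyl shikimate in Arabidopsis, had 5 higher and 3 lower unigenes among 18 tested. The most abundant, Unigene16783_All, had 50.87, 77.23 and 60.83 FPKM in callus and 28.09, 21.42 and 30.28 FPKM in leaves (log2 fold change 1.23, SE 0.23, edgeR adjusted p = 0.0146, but 0.0656 without callus replicate 5 and 0.0699 without callus replicate 6). Unigene1145_All had 18.84, 24.87 and 20.88 FPKM in callus against 10.66, 10.80 and 16.30 FPKM in leaves, separated but not called (log2 fold change 0.76, edgeR adjusted p = 0.0847, and 0.0408 without leaf replicate 3). Among the higher unigenes the fold change was largest for Unigene842_All, at 7.53, 10.06 and 11.13 FPKM in callus and 0.15, 0.08 and 0.52 FPKM in leaves (log2 fold change 5.23, edgeR adjusted p = 0.00995). All 3 lower unigenes were contigs of cluster CL5309. CL5309.Contig6_All was at 0 in all callus libraries and had 55.26, 32.60 and 4.39 FPKM in leaves, at least 822-fold higher in leaves, with leaf replicate 3 far under the others (edgeR adjusted p = 0.0174, but 0.0511 to 0.0657 without leaf replicate 2, callus replicate 5 or callus replicate 6). The 5 CSE contigs of this cluster summed to between 10.7 and 14.2 FPKM in callus and between 35.2 and 74.8 FPKM in leaves, without overlap. The whole cluster of 7 contigs, 2 of which had another name, had a log2 fold change of -0.13 (edgeR adjusted p = 0.784). That value includes the 2 contigs of another name, and the sum of the CSE contigs alone was not tested. The KEGG number of these unigenes, given above, is that of a lipase, and their action on caffeoyl shikimate was not measured.

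CCoAOMT, which methylates caffeoyl-CoA, had 4 of 12 tested unigenes higher and 0 lower by edgeR, with 8 higher and 0 lower at an unadjusted p under 0.05 and 7 higher and 0 lower by DESeq2. Fold changes were positive for 11 of the 12. The most abundant, CL7744.Contig1_All, had 93.80, 43.37 and 49.76 FPKM in callus and 8.74, 3.20 and 23.89 FPKM in leaves. Its tissues did not overlap, but the spread among leaves was wide and the log2 fold change of 2.41 (SE 0.78) did not pass (edgeR adjusted p = 0.0672, and 0.0282 without leaf replicate 3). CL1436.Contig8_All had 45.14, 43.04 and 50.51 FPKM in callus and 10.61, 4.68 and 8.71 FPKM in leaves, a log2 fold change of 2.54 (SE 0.35, edgeR adjusted p = 0.00858, but 0.0582 without callus replicate 6). The acyltransferase CL350.Contig14_All, at 21.67, 4.88 and 4.55 FPKM in callus and 1.39, 0.76 and 0.55 FPKM in leaves, is counted among the 4 by its name alone. F5H, the P450 that opens the way to syringyl units, was low, at 4.46, 1.08 and 2.50 FPKM in callus and 3.21, 2.97 and 8.12 FPKM in leaves for Unigene13763_All (log2 fold change -0.80, edgeR adjusted p = 0.429).

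CCR, which reduces the CoA esters to aldehydes, held the most abundant members of the pathway in callus. CL1207.Contig3_All had 338.34, 220.88 and 269.98 FPKM in callus and 8.95, 9.71 and 16.42 FPKM in leaves. That is 276 ± 59.0 FPKM in callus against 11.7 ± 4.11 FPKM in leaves (SD, n = 3 each), a log2 fold change of 4.57 (SE 0.38, edgeR adjusted p = 0.00428). The neighbouring contigs of the cluster shared the pattern: CL1207.Contig4_All had 272.39, 173.17 and 200.23 FPKM in callus and 12.39, 11.93 and 17.29 FPKM in leaves, and CL1207.Contig6_All 144.20, 98.64 and 120.27 FPKM in callus and 0.36, 0.89 and 2.88 FPKM in leaves. The 6 contigs of the cluster together summed to 771.1, 498.4 and 599.6 FPKM in callus and 23.7, 25.1 and 38.3 FPKM in leaves, with a log2 fold change of 4.38 (SE 0.33, edgeR adjusted p = 0.000661). CL1461.Contig2_All, also named CCR 1, had 57.96, 76.44 and 54.20 FPKM in callus and 13.99, 23.46 and 40.24 FPKM in leaves and was not called (log2 fold change 1.26, edgeR adjusted p = 0.0707, and 0.0302 without leaf replicate 3).

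Elsewhere in the CCR set the direction was mixed. Of 38 CCR unigenes tested, 8 were higher and 2 lower in callus, with a median log2 fold change of -0.04, since 19 were positive and 19 negative. By name, 7 of 22 tested CCR 1 unigenes were higher and 2 lower, whereas 1 of 16 tested unigenes matched to the CCR-like protein SNL6 was higher, and the 22 SNL6-like unigenes summed to 67.00, 42.96 and 45.54 FPKM in callus and 84.61, 73.90 and 59.05 FPKM in leaves. Both lower unigenes were contigs of cluster CL6640. CL6640.Contig1_All had 2.17, 3.36 and 3.43 FPKM in callus and 24.54, 19.41 and 28.02 FPKM in leaves (log2 fold change -3.02, SE 0.32, edgeR adjusted p = 0.00544). CL6640.Contig3_All had 8.92, 3.36 and 3.15 FPKM in callus and 30.84, 20.87 and 28.47 FPKM in leaves (log2 fold change -2.35, SE 0.52, edgeR adjusted p = 0.0244, but 0.0514 to 0.0964 without leaf replicate 3, callus replicate 5 or callus replicate 6).

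Another contig of CL6640 went the other way, which made it the only member cluster with calls in both directions. CL6640.Contig5_All had 16.95, 26.09 and 24.21 FPKM in callus and 0.74, 2.18 and 1.44 FPKM in leaves (log2 fold change 3.92, SE 0.49, edgeR adjusted p = 0.00708). The 5 contigs summed to 33.9, 38.8 and 36.9 FPKM in callus and 71.3, 57.6 and 67.7 FPKM in leaves, with a log2 fold change of -0.38 in counts (SE 0.12, edgeR adjusted p = 0.0432). FPKM divides by the length of each contig, and the callus contig, at 2586 bp, is longer than the leaf contigs at 1257 and 1799 bp, so the sums in FPKM differ more than those in counts. Reads that match several contigs of a cluster were shared among them when expression was estimated, so levels of single contigs carry more doubt than their sum.

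**Figure D3:**
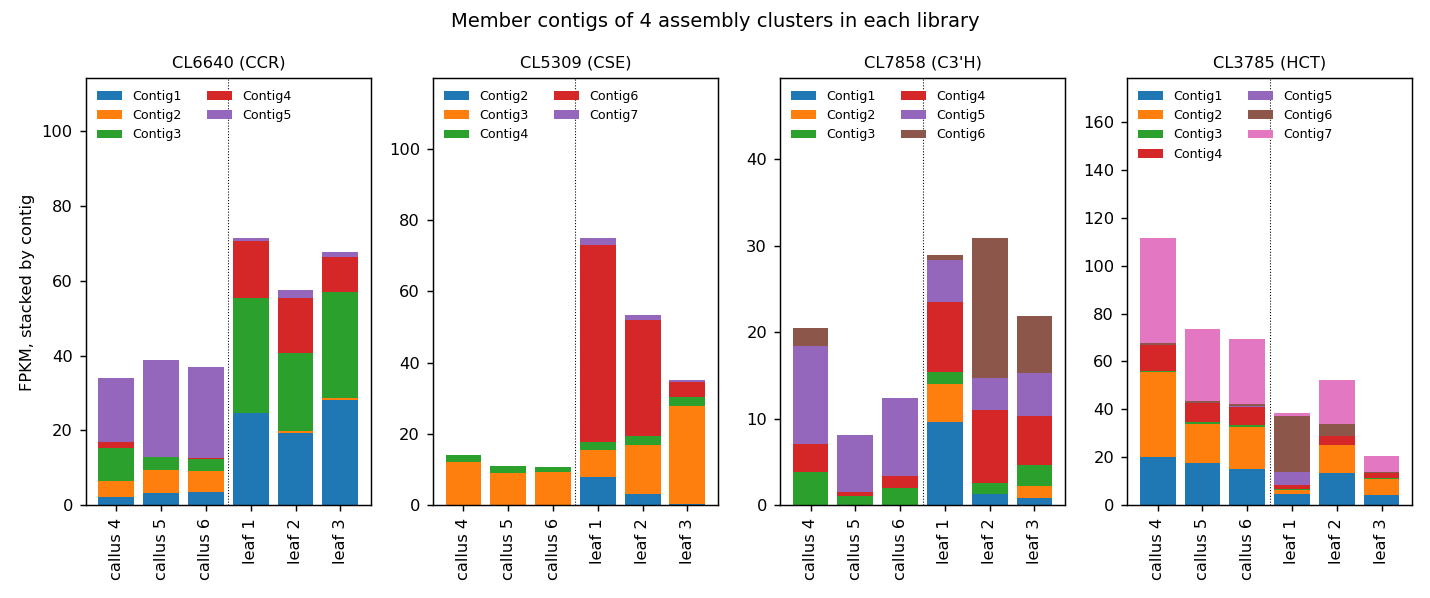
FPKM of the member contigs of 4 assembly clusters, stacked, in each callus and leaf library. In CL6640 Contig5 was the most abundant contig of the callus bars (16.95 to 26.09 FPKM) and Contig1 and Contig3 most of the leaf bars, and in CL5309 Contig6 was at 0 in callus, while in CL3785 Contig7 was the most abundant contig of the callus bars.

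CAD, which reduces the aldehydes to monolignols, had 7 of 19 tested unigenes higher and 1 lower. CL10650.Contig1_All, matched to probable CAD 1, had 247.91, 229.56 and 158.70 FPKM in callus and 26.40, 20.73 and 27.94 FPKM in leaves. Its means were 212 ± 47.1 FPKM in callus and 25.0 ± 3.80 FPKM in leaves (SD, n = 3 each), a log2 fold change of 3.09 (SE 0.27, edgeR adjusted p = 0.00446). CL6428.Contig7_All had 120.96, 78.70 and 88.40 FPKM in callus and 0.00, 0.28 and 1.25 FPKM in leaves (log2 fold change 7.52, SE 1.38, edgeR adjusted p = 0.0146, but 0.0609 without callus replicate 5 and 0.0684 without callus replicate 6, and at the threshold, 0.05, without callus replicate 4). Transcripts of this cluster were thus close to absent from leaves. CL6428.Contig4_All had 8.73, 4.82 and 5.06 FPKM in callus and 0 counts in all leaf libraries, at least 189-fold higher in callus (edgeR adjusted p = 0.00801, but 0.0584 without callus replicate 6), and the 8 contigs of the cluster had a log2 fold change of 7.24 (SE 0.89, edgeR adjusted p = 0.00232). Unigene5151_All, matched to probable CAD 6, followed at 6.48, 8.89 and 6.18 FPKM in callus and 0.09, 0.10 and 0.05 FPKM in leaves (log2 fold change 6.53, edgeR adjusted p = 0.00428). The lower unigene, Unigene22181_All, matched to probable CAD 3, was at 0 in callus and had 1.74, 0.54 and 2.99 FPKM in leaves, at least 34.7-fold higher in leaves.

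**Figure D4:**
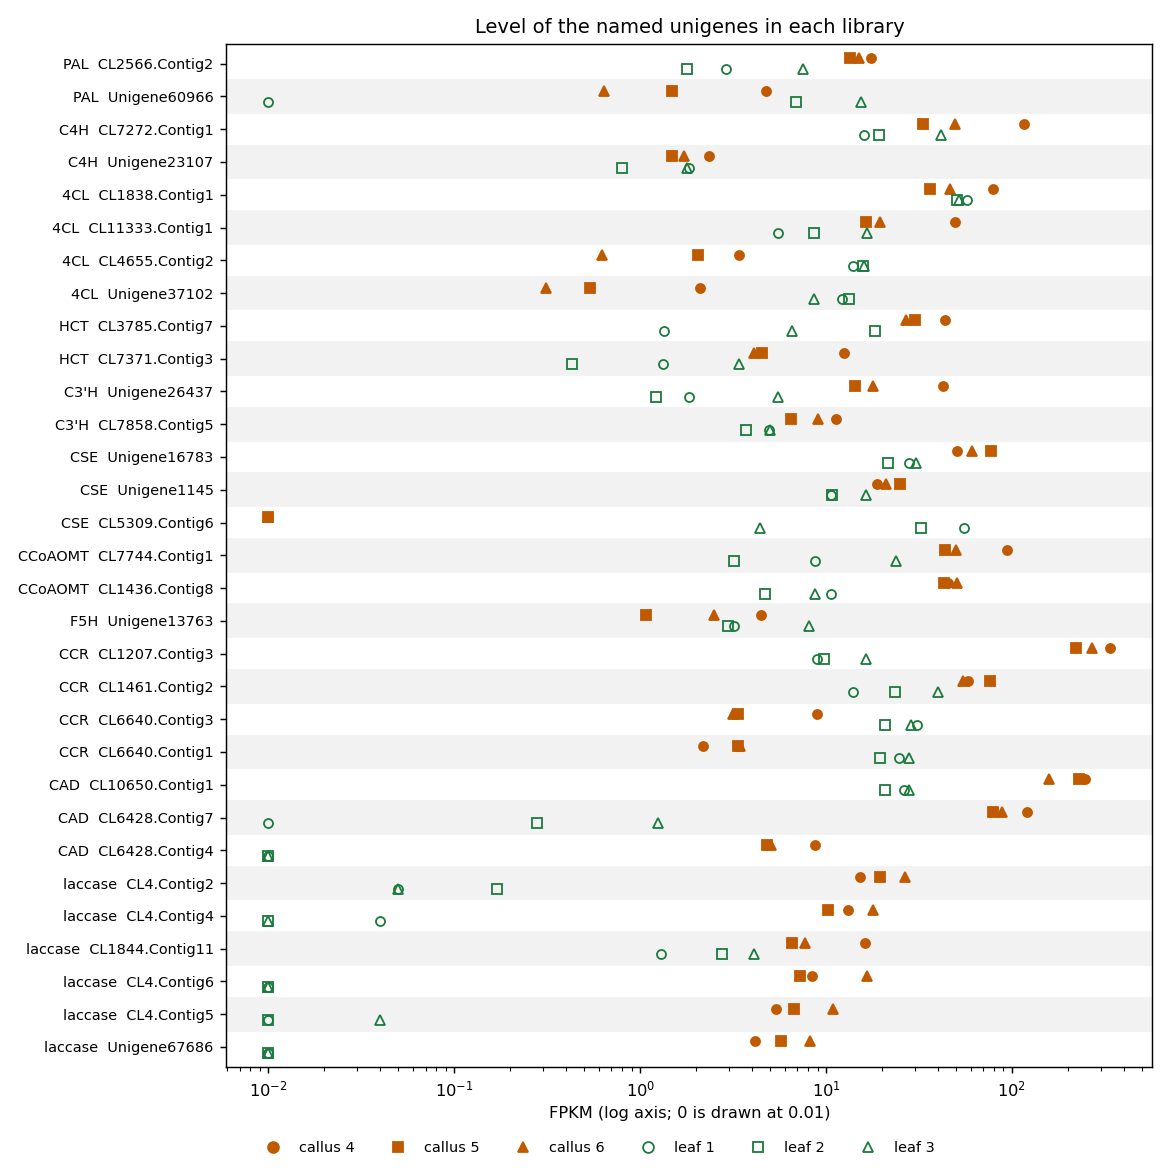
FPKM (log axis, 0 drawn at 0.01) of 31 unigenes of the 11 enzymes in each library, callus filled and above the open leaf symbols in each row. The gaps between the tissues are wide for the laccase cluster CL4 and the CAD cluster CL6428, whose leaf values lie at or below 1.25 FPKM, and CL1838.Contig1 and Unigene23107 are among the rows that overlap.

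Laccases, copper oxidases of the cell wall, held the largest number of higher members. Of 35 tested, 14 were higher and 0 lower by edgeR at an adjusted p of 0.05, with 16 higher and 3 lower at an unadjusted p. DESeq2 called 18 higher and 4 lower, but over all 65 laccases, so these include unigenes that edgeR did not test. The tested ones that passed were of few kinds: 5 of 5 named laccase-6, 5 of 5 named laccase-5, 2 of 2 named laccase-11, 1 of 1 named laccase-17 and 1 of 14 named laccase-12. Of 6 tested laccase-15 unigenes, 0 passed by edgeR, with 1 higher at an unadjusted p under 0.05 and 1 higher by DESeq2. The 6 laccase-6 unigenes summed to 45.71, 46.90 and 79.41 FPKM in callus and 0.09, 0.17 and 0.09 FPKM in leaves. The 6 laccase-15 unigenes summed to 53.07, 9.58 and 15.92 FPKM in callus and 24.28, 14.93 and 25.41 FPKM in leaves, and the 20 laccase-12 unigenes to 17.60, 17.30 and 13.17 FPKM in callus and 23.08, 13.99 and 18.12 FPKM in leaves. In Arabidopsis, laccases 4, 11 and 17 are known to act in lignification.

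All the laccase-6 unigenes were contigs of cluster CL4. CL4.Contig2_All had 15.20, 19.59 and 26.51 FPKM in callus and 0.05, 0.17 and 0.05 FPKM in leaves (log2 fold change 7.72, SE 0.67, edgeR adjusted p = 0.00443). CL4.Contig4_All had 13.09, 10.28 and 17.99 FPKM in callus and 0.04, 0.00 and 0.00 FPKM in leaves, a ratio of counts of 959 with an exact 95% interval of 324 to 4590. Callus replicate 6 was the highest library for both. CL4.Contig6_All had 8.41, 7.27 and 16.61 FPKM in callus and no counts in leaves, at least 471-fold higher in callus, and CL4.Contig5_All had 5.41, 6.68 and 10.93 FPKM in callus and 0.00, 0.00 and 0.04 FPKM in leaves (ratio of counts 583, exact 95% interval 195 to 5830). Without callus replicate 6, CL4.Contig4_All, CL4.Contig5_All and CL4.Contig6_All had an edgeR adjusted p of 0.0502 to 0.0516, just above the threshold of 0.05. The 7 contigs of the cluster had a log2 fold change of 8.73 (SE 0.42, edgeR adjusted p = 0.000480), the smallest adjusted p of the clusters described here.

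Laccases of other names were also called higher in callus. Unigene67686_All, matched to laccase-5, had 4.14, 5.70 and 8.23 FPKM in callus and no counts in leaves, at least 402-fold higher in callus (edgeR adjusted p = 0.00575, and 0.0503 without callus replicate 6). CL229.Contig2_All, of the same name, had 2.74, 5.57 and 3.76 FPKM in callus and 0.14, 0.23 and 0.24 FPKM in leaves (log2 fold change 4.26, SE 0.43, edgeR adjusted p = 0.00510). Its cluster of 27 contigs, 2 of them laccases, had a log2 fold change of 1.71 (SE 0.37, edgeR adjusted p = 0.0127). Neither tissue overlapped the other in these unigenes. CL1844.Contig11_All, the most abundant laccase-15 unigene, had 16.20, 6.52 and 7.67 FPKM in callus and 1.29, 2.75 and 4.08 FPKM in leaves and missed the threshold (log2 fold change 1.92, SE 0.59, edgeR adjusted p = 0.0584). Its cluster of 47 contigs holds 3 laccase unigenes, and the sum of the cluster had a log2 fold change of -0.28 (edgeR adjusted p = 0.201).

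**Figure D5:**
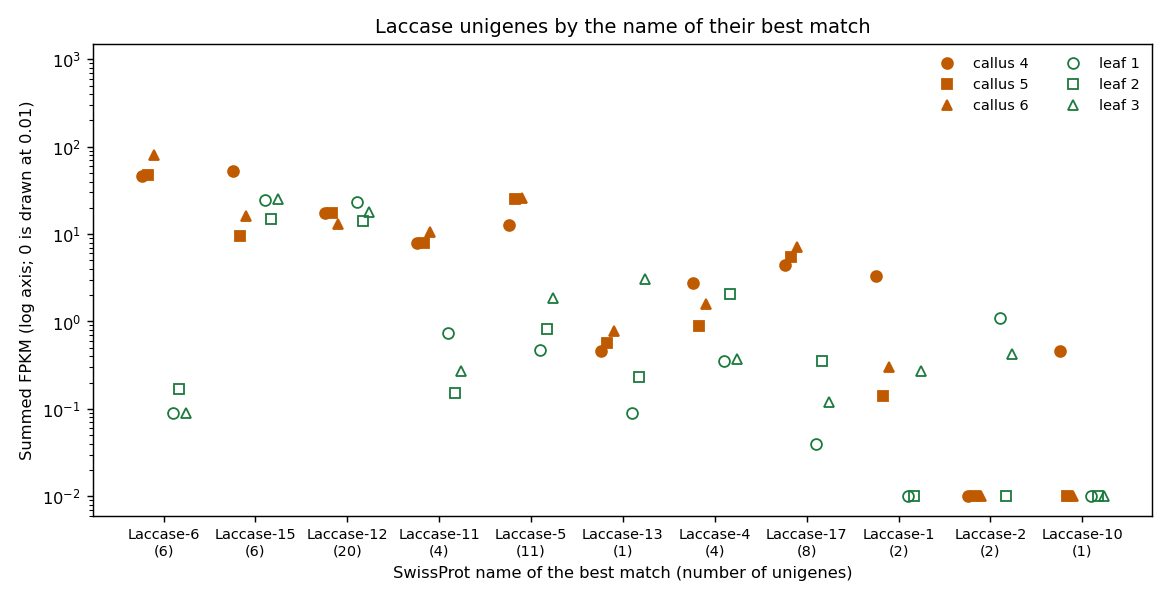
Summed FPKM (log axis, 0 drawn at 0.01) of the laccase unigenes in each library, grouped by the SwissProt name of their best match, callus left of leaves. The laccase-6 set lay at 45.71 to 79.41 FPKM in callus and at most 0.17 FPKM in leaves, and the laccase-15 and laccase-12 sets overlapped between the tissues.

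The unigenes that supply phenylalanine had as many higher as lower calls by edgeR, but more lower calls by DESeq2. Of 164 unigenes of the shikimate pathway and phenylalanine synthesis, 91 were tested, with a median log2 fold change of -0.08. By edgeR 10 were higher and 10 lower in callus, beside 14.2% higher and 12.3% lower over all unigenes tested. At an unadjusted p under 0.05 the counts were 13 higher and 22 lower, and by DESeq2, counted over all 164, they were 13 higher and 27 lower. The 164 unigenes summed to 586.0, 439.6 and 501.1 FPKM in callus and 580.4, 578.6 and 637.9 FPKM in leaves. The most abundant, CL4966.Contig2_All, a plastid DAHP synthase that opens the shikimate pathway, had 124.86, 65.15 and 85.16 FPKM in callus and 26.03, 42.21 and 58.93 FPKM in leaves (log2 fold change 1.12, edgeR adjusted p = 0.0951).

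Class III peroxidases, which oxidise monolignols beside the laccases and also have other substrates, were called higher at 17 and lower at 2 of 40 tested unigenes, with a median log2 fold change of 2.42. Their sum was 1250.0, 787.8 and 809.3 FPKM in callus and 142.4, 70.1 and 173.6 FPKM in leaves. The most abundant, CL7824.Contig1_All, matched to peroxidase 42, had 319.91, 449.23 and 385.46 FPKM in callus and 25.78, 1.14 and 23.26 FPKM in leaves (log2 fold change 4.54, SE 1.08, edgeR adjusted p = 0.0291). Dirigent proteins, which guide the coupling of monolignols into lignans, and enzymes with pinoresinol in their name were together higher at 11 and lower at 1 of 38 tested unigenes. CL7969.Contig2_All, a dirigent protein 1, had 287.33, 113.70 and 137.96 FPKM in callus and 0.84, 2.37 and 3.44 FPKM in leaves (log2 fold change 6.35, SE 0.76, edgeR adjusted p = 0.00657).

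The entry to flavonoids, which branches off after 4CL, ran mainly the other way. Of 11 tested chalcone synthase and chalcone isomerase unigenes, 1 was higher and 6 were lower in callus, with a median log2 fold change of -2.17. The most abundant was the exception: Unigene26235_All, a chalcone synthase, had 35.11, 36.94 and 39.26 FPKM in callus and 1.96, 0.82 and 2.39 FPKM in leaves (log2 fold change 4.43, SE 0.44, edgeR adjusted p = 0.00509). The set as a whole summed to 69.6, 55.7 and 60.5 FPKM in callus and 61.7, 91.1 and 112.8 FPKM in leaves, so the tissues overlapped.

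Markers of the cells that lignify were low in both tissues. Of 16 unigenes for secondary wall cellulose synthases, xylem cysteine proteinases, fasciclin-like proteins 11 and 12 and IRREGULAR XYLEM proteins, 10 were tested, with a median log2 fold change of 3.48. By edgeR 6 were higher in callus and 0 lower, and 6 and 2 at an unadjusted p under 0.05. DESeq2, counted over all 16, called 7 higher and 2 lower. The 16 unigenes summed to 20.8, 24.3 and 25.8 FPKM in callus and 4.6, 4.2 and 6.3 FPKM in leaves, and 4 of the 16 were at 0 in callus. Unigene21429_All, a fasciclin-like arabinogalactan protein 11, had 9.23, 13.82 and 11.65 FPKM in callus and 0.24, 0.00 and 0.29 FPKM in leaves (log2 fold change 6.00, SE 1.03, edgeR adjusted p = 0.0123). Leaf markers went with the tissue labels, with 27 of 73 tested unigenes lower and 1 higher in callus. Unigenes of dividing cells were called higher at 11 and lower at 2 of 38 tested, and they summed to 291.5, 444.5 and 468.4 FPKM in callus and 399.4, 305.6 and 295.6 FPKM in leaves, an overlap in which callus replicate 4 was the lowest library. The part of these cell types in the differences of the lignin enzymes was not tested.

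Most calls of members depended on which libraries entered the fit. How far this held for all unigenes is not given here, so it cannot be read as a trait of the members. In each of 6 fits that left out a library, all 44 higher members stayed positive and all 11 lower members negative. The tissues did not overlap in FPKM for any of these members, so leaving out a library could hardly change a sign. Such fits therefore say little about the directions. Only 7 of the 55 calls were made in all 6 such fits: CL1207.Contig3_All and CL1207.Contig4_All and CL6640.Contig1_All of CCR, CL10650.Contig1_All and Unigene5151_All of CAD, and CL4.Contig2_All and CL229.Contig2_All of laccase. The study's methods set stricter thresholds, a change of 2-fold or more with an adjusted p no larger than 0.001. There edgeR called 0 members, as it called 0.0% of all unigenes tested, and the smallest adjusted p of a member was 0.00416. At an unadjusted p under 0.05 it called 92 of 184. The share over all unigenes at that p was not counted, so these 92 cannot be set against it. DESeq2, the tool that the methods name, gave an adjusted p to 237 members. At these thresholds it called 35 of the 237 higher and 10 lower. Over all unigenes to which it gave an adjusted p, 7.44% were higher and 5.42% lower.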

How the data were processed

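RNA-seq libraries of 3 callus and 3 leaf samples were used. The authors assembled reads with Trinity and TGICL, aligned them with Bowtie2 2.2.5 and deposited RSEM 1.2.8 expected counts without normalization. The deposited FPKM values divide the counts by effective length and library total. Deposited unigene lengths are in bp. The authors' own fold changes, p-values, q-values (DESeq2) and averages were not used.

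Rounded expected counts were tested with edgeR 4.0.16 (TMM scaling, filterByExpr, legacy settings, Benjamini-Hochberg adjustment) in R 4.3.3, on all 6 libraries without covariates. Alternatives were DESeq2 1.42.0 and limma 3.58.1, which used log2 FPKM after adding 0.01 or 1, for unigenes above 0 in at least 3 libraries, and others are given with their effect. The common biological coefficient of variation was 0.753. Scripts were tested on simulated counts. Tables and plots were made with Python 3.11.15, pandas 2.3.3, numpy 2.4.6, scipy 1.17.1 and matplotlib 3.10.9.

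Unigenes of a further enzyme of the pathway are not reported here and are in no count of members. Members and lists were chosen with earlier results of these data known. The text names, for each enzyme, the member with the highest mean FPKM and the next from another cluster (1 FPKM or more), and the 5 largest changes each way among called members with 5 FPKM or more in the higher tissue, with the most abundant unigene of each other list. Other named members were chosen after their values were seen. Lower bounds use 3 counts over a tissue, and they and the exact intervals cover counting error only.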

Additional observations from a re-analysis of the deposited data

How the results depend on the processing

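No paired analysis was possible because the leaf and callus libraries share no replicate numbers. At an adjusted p of 0.05, the members higher in callus numbered 6 to 46 when a library was left out (6 without callus replicate 6, 18 without callus replicate 5). The members lower in callus numbered 1 to 16 with a library left out (1 without callus replicate 5 or 6), 27 with DESeq2 and 19 with limma on log2(FPKM + 0.01). DESeq2 also called more members higher: 18 laccase, 12 CCR and 9 CAD unigenes against 14, 8 and 7 by edgeR, and fewer for no enzyme. Its counts include members that edgeR did not test. Shares over all unigenes at these settings are not given here. Choice by KEGG orthology gave 468 members instead of 278, of which 76 were higher and 20 lower. Of the 173 members with names free of "-like" and "probable", 7 were lower. Counts from sets of such unlike size cannot be compared directly. The numbers tested in these sets are not given here, so the counts cannot be set beside the shares over all unigenes. At the thresholds of the methods, members higher in callus numbered 35 with DESeq2, 1 with edgeR's legacy setting off, 10 with limma on log2(FPKM + 1) and 6 when counts were summed over clusters, and 10 were lower with DESeq2. In each case the cause was not tested. The log2 fold change changed sign for Unigene60966_All (0.71 with limma on log2(FPKM + 0.01)), for CL1838.Contig1_All (-0.07 and -0.06 with limma, -0.11 over its cluster, -0.38 to 0.30 with a library left out, the lowest without callus replicate 4), and over the cluster for CL7858.Contig5_All (-0.93) and CL1844.Contig11_All (-0.28). After the change none of these was called. Of the 31 unigenes of the rule, 18 kept their side of the threshold and their direction without callus replicate 6, 24 without callus replicate 5, 22 over clusters and 26 to 31 under each other alternative. Leaving out the peanut-matching unigenes changed no call of the 31 unigenes. Low counts in leaves limit the size, not the direction, of the largest differences.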
